A study of Mus musculus with 2 samples.

Results

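The genes of blood coagulation and complement were examined for GATA4 occupancy in whole liver of adult mice. The set held 40 protein-coding genes, chosen by symbol for their known roles, out of 22380 protein-coding genes in the annotation. The choice was made with earlier results of these data known. All 40 symbols were found, each in a single gene. Chromatin immunoprecipitation followed by sequencing (ChIP-seq) recovers the DNA fragments to which an antibody finds a protein attached. Here the antibody was GATA4 C-20, the animals were of the strain C57BL/6 x Sv129 and, by the labels, 2 to 3 months old, and no genotype or treatment is given in the labels. The study's methods give a slightly older age range. There was 1 GATA4 ChIP sample and 1 input DNA sample from liver of the same strain and age. The study's methods describe 2 biological replicates, each from the livers of 2 mice. Peaks were called on each replicate and on both merged, and regions whose rank agreed between the replicates were kept. The deposited lists hold 1 set of peaks per caller with no values per replicate, so no value here has a replicate error and no test was made.

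A GATA4 occupied site (OS) was a peak of the common list, which holds the 4409 peaks that the callers SPP and MACS2 both found. An OS was counted for a gene when its midpoint lay in the gene body or within 10 kb of it. A gene without an OS had no peak found by both callers, though a single caller could still have a peak there. The lists give no read counts, so the lack of an OS does not show that GATA4 was absent. Each peak carries a number, its position in its list. The score of every peak is 1000 and carries no information, so only the numbers are given, and what put the peaks in this order is not given in the files. Whole liver holds hepatocytes together with endothelial, Kupffer, stellate and bile duct cells, and the cell type in which an OS was occupied cannot be told from these lists.

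Coagulation is a cascade of serine proteases and cofactors that ends with thrombin cutting fibrinogen into fibrin, and it is held in check by anticoagulant proteins and by the fibrinolytic enzyme plasmin. Complement is a cascade of plasma proteins that tags microbes and damaged cells and assembles a pore in their membranes. It can start through the classical, the lectin or the alternative pathway. Hepatocytes secrete most proteins of both systems, whereas C1q and properdin come mainly from macrophages and other myeloid cells, and tissue factor pathway inhibitor mainly from endothelium. GATA factors bind the sequence WGATAR, in which W is A or T and R is A or G.

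Of the 40 genes, 9 had at least 1 GATA4 OS (22.5%, Wilson 95% interval 12.3 to 37.5). Among the 22340 other protein-coding genes the percentage was 13.6, which lies inside that interval. The 9 genes were F7, F10, F11, Fga and Fgb of the coagulation system and C4b, Masp1, C8b and Cfi of the complement system. Together they held 11 different OS, since F7 and F10 shared 1 and Fga and Fgb shared another. Masp1 alone held 5 of the 11. Coagulation thus had 5 of 19 genes with an OS and 3 OS, and complement 4 of 21 genes and 8 OS. The 40 genes stand in 32 separate stretches of the genome when those whose 10 kb windows touch are joined, and 7 of the 32 held an OS. The intervals cover counting error only and treat the genes as separate, which neighbours that share an OS are not.

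**Figure D1:**
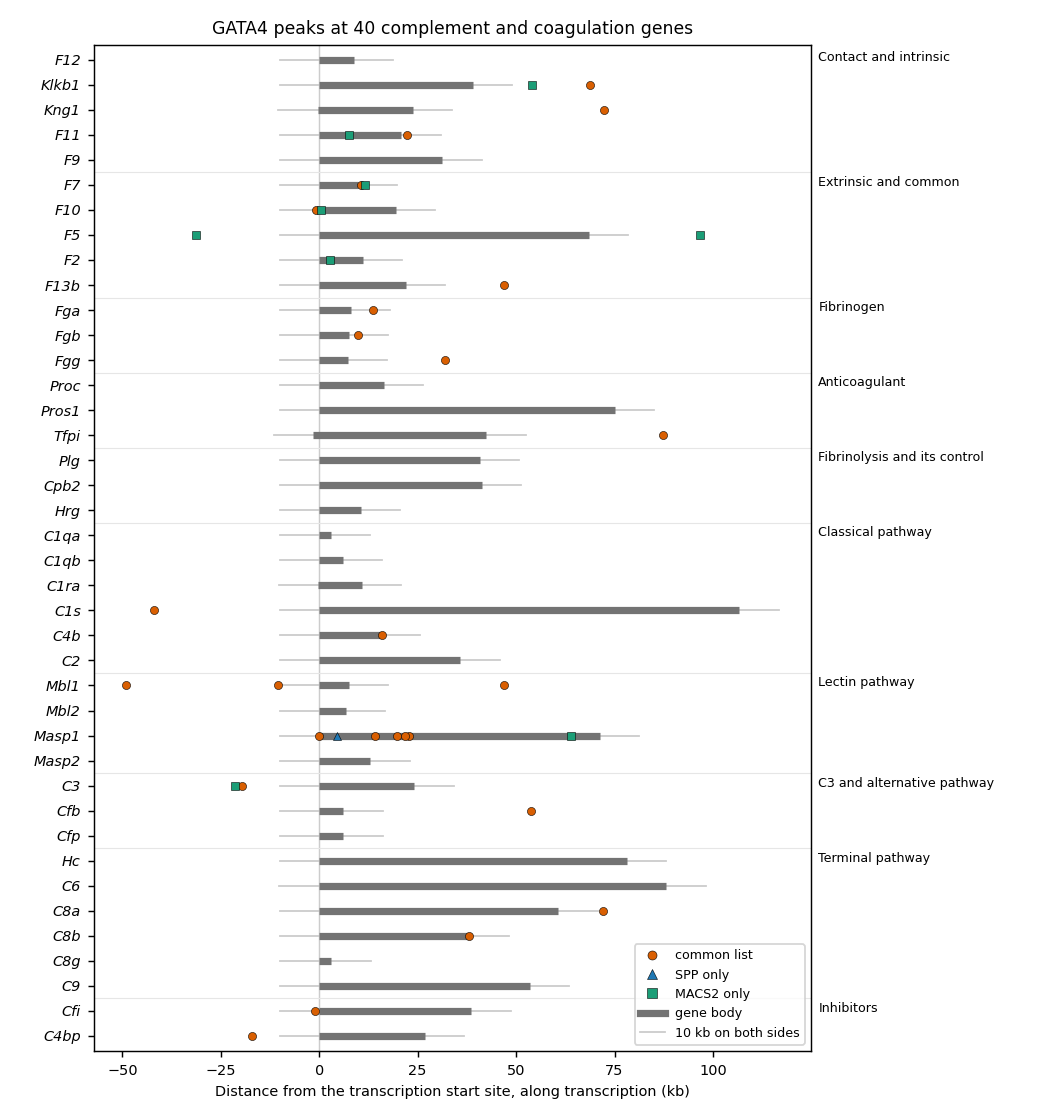
GATA4 peaks (common list, SPP only or MACS2 only) within 50 kb of each of the 40 genes, drawn along transcription as distance from the start site of the longest transcript in kb, with the gene body as a thick bar and 10 kb on both sides as a thin line. OS lie within the 10 kb window of 9 genes, and Masp1 has 5 of them.

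By midpoint, 5 of the 11 OS lay in a gene body and the others lay beside the genes. Only Masp1 and C8b, 2 of 40 genes (5.0%, Wilson 95% interval 1.38 to 16.5), had an OS between the ends of the gene body, against 7.68% of other genes. With 5 kb on both sides the numbers were 8 genes (20%, 10.5 to 34.8) and 11.3% of other genes, and with 50 kb they were 20 genes (50%, 35.2 to 64.8) and 27.6%. At 100 kb they were 27 genes (67.5%, 52.0 to 79.9) and 39.9%. The background lay inside the members' interval for the gene body, 5 kb and 10 kb and below it for 50 kb and 100 kb. A single OS can count for several neighbouring members. At 50 kb, C8a, Fgg and Klkb1 were added only through OS already counted for C8b, for Fga and Fgb, and for F11. Per length of sequence, the merged 10 kb windows of the members held 5.78 OS per Mb (exact Poisson 95% interval 2.89 to 10.3) and those of all other genes 2.53. Masp1 decided this value. Without it, 39 genes held 6 OS, or 3.31 per Mb (1.22 to 7.21), and 20.5% of the genes had an OS. Members with an OS had a median length of 19.4 kb and members without one 24.2 kb, while among other genes the occupied ones were longer (33.0 against 13.7 kb).

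**Figure D2:**
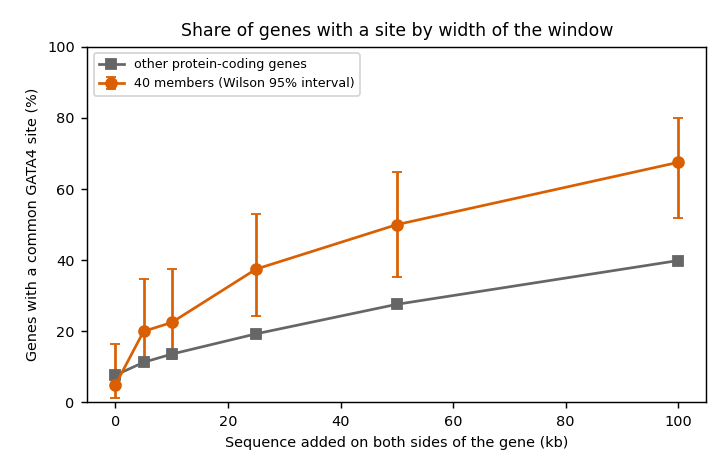
Share of genes (%) with at least 1 common GATA4 OS against the sequence added on both sides of the gene (kb), for the 40 members with Wilson 95% intervals and for the other protein-coding genes. The share of members is 5.0% in the gene body and 50% at 50 kb, where those of other genes are 7.68% and 27.6%.

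Masp1 encodes serine proteases that bind mannan-binding lectin and ficolins, and it was grouped here with the lectin pathway of complement. It lies on the minus strand of chromosome 16, from 23449490 to 23520676 (mm9, as for all positions here). Its 5 OS fell in 2 places. OS number 2140 (23520675 to 23520818) had its midpoint 70 bp upstream of the transcription start site (TSS). The other 4 lay in intron 2, with midpoints 14.3, 19.8, 21.7 and 22.9 kb downstream of the TSS, and carried the numbers 413, 759, 958 and 3484. From number 413 to 759 the midpoints were 5.55 kb apart, from 759 to 958 they were 1.87 kb apart, and from 958 to 3484 the distance was 1.2 kb. The TSS of Masp1 was the nearest protein-coding TSS for all 5, and no other protein-coding gene had its window over any of them. The long transcript has 16 exons and the short one 11, and both contain this intron.

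At least 5 OS within the same window were seen at 36 of the 22340 other genes (0.161%). No other member had more than 1. Numbers 413, 759 and 958 stood in the leading part of the common list, and the MACS2 peaks over them had the numbers 516, 969 and 835 of 5867. The promoter OS was matched by MACS2 number 1928, and OS 3484, the narrowest of the 5 at 80 bp, by number 4752. Each caller also had a peak of its own at Masp1. SPP number 3115 of 4811 lay in intron 1, 4.62 kb from the TSS, and MACS2 number 5247 in intron 13, 64.0 kb from it. Both held 2 WGATAR matches, and the TSS nearest to the MACS2 peak was that of Rtp1.

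**Figure D3:**
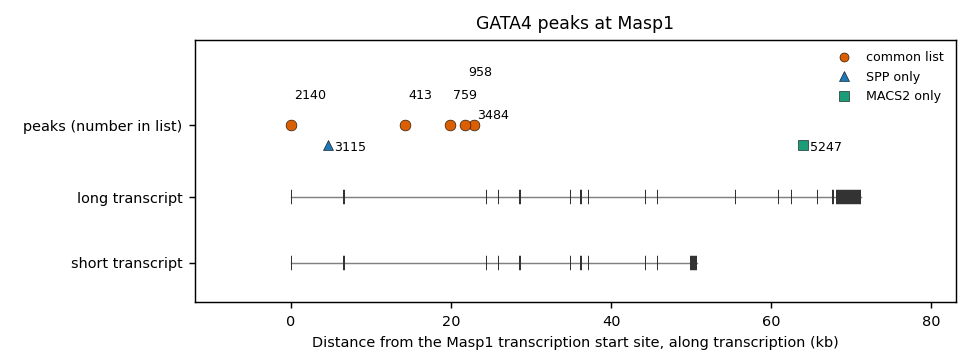
GATA4 peaks at Masp1 with their numbers, above the exons (bars) and introns (lines) of its long and short protein-coding transcripts, against the distance from the TSS in kb along transcription. OS 2140 lies at the TSS, and 413, 759, 958 and 3484 lie together in intron 2.

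The sequences of the Masp1 OS are given because this gene holds 5 of the 11 OS of the set. They are the plus strand of the reference, with WGATAR in capitals. The search used the word AGATAA, the word AGATAG, the word TGATAA and the word TGATAG on both strands, and a match on the minus strand appears as the reverse complement. The whole OS 413, 759, 958 and 3484 are shown, and the motif of the promoter OS with 20 bases on both sides.
OS 413 (chr16:23506280-23506540): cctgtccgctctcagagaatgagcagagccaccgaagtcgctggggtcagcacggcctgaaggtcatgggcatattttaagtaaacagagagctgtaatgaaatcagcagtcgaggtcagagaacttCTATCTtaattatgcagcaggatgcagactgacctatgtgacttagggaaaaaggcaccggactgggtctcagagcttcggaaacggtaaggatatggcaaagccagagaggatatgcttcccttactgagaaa
OS 759 (chr16:23500760-23500964): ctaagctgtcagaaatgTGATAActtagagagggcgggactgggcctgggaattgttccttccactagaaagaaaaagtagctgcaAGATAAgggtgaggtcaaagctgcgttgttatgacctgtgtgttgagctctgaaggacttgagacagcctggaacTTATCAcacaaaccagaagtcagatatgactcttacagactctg
OS 958 (chr16:23498893-23499092): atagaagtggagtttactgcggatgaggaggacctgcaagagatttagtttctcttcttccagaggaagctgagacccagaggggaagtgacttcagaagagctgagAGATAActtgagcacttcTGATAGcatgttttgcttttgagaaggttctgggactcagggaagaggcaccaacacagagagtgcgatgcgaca
OS 3484 (chr16:23497754-23497833): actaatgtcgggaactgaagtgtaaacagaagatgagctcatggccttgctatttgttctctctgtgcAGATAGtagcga
OS 2140, promoter (chr16:23520694-23520739): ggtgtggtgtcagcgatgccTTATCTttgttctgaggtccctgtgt
OS 759 held 3 matches, 1 of them on the minus strand, and OS 958 held 2 that were close together on the plus strand. The other 3 had 1 match each.

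Among the proteases and cofactors of coagulation, F7 and F10 stood side by side on chromosome 8 in the same orientation. F7 (13026034 to 13035809) encodes factor VII, the protease that starts the extrinsic pathway with tissue factor, and F10 (13037308 to 13056676) encodes factor X, which with factor V converts prothrombin to thrombin. The OS between them, number 2570 (13036420 to 13036739), lay 729 bp upstream of the TSS of F10 and 770 bp beyond the end of F7. For F7 it was 10.5 kb from the TSS, so the gene counted through its downstream side. MACS2 placed its peak there late in its list, at number 5383. A primer pair of the study for the factor X promoter lies within this OS. By ChIP and quantitative PCR, the study found GATA4 at that promoter in whole liver and in purified hepatocytes. It reports that the signal was lost after Gata4 was excised in hepatocytes, while factor X mRNA was not altered. A further MACS2 peak without an SPP partner, number 4842 (13037475 to 13037919), had its midpoint in intron 1 of F10.

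F11 encodes factor XI, a protease of the intrinsic pathway. It lies on the minus strand of chromosome 8 from 46326524 to 46347385, and its OS, number 4218 (46325117 to 46325223), lay 1354 bp beyond the end of the gene and 22.2 kb from its TSS. This was the member OS nearest the end of the common list. MACS2 gave it number 3689 and had a peak of its own in intron 3 of F11, number 5813 of 5867, with 3 WGATAR matches. The neighbour Klkb1, the gene for plasma prekallikrein, had no OS in its window, and the F11 OS was its nearest at 29.6 kb.

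The 3 fibrinogen chains are encoded by Fgg, Fga and Fgb, which form a cluster on chromosome 3. OS number 3516 (82843637 to 82843956) lay between the ends of Fga and Fgb, which are transcribed toward each other. It was 5.76 kb beyond the end of Fga and 2.37 kb beyond that of Fgb. At 5 kb in place of 10 kb, Fga was lost while Fgb kept the OS. Fgg had no OS within 10 kb, and this one was 24.8 kb away. None of the 3 promoters held an OS.

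F2, the gene for prothrombin, had no common OS, and its nearest was 237 kb away. MACS2 alone called a peak in intron 4, number 5348 (91473455 to 91473994 on chromosome 2), with 1 WGATAR match. Through this peak, 10 of the 40 genes (25%) had a MACS2 peak within 10 kb, against 17.3% of other genes. With the SPP list the 9 genes were the same as with the common list, against 14.5% of other genes.

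F12, the gene for factor XII of contact activation, and Kng1, the gene for its cofactor kininogen, had no peak of any list in their windows. OS number 1240, with 4 WGATAR matches, lay 48.4 kb downstream of Kng1. The nearest TSS to that OS, 2717 bp away, was that of Rfc4. F9, the gene for factor IX, had its nearest OS 6810 kb away. F5 (factor V) and F13b (the B chain of the fibrin-stabilising factor XIII) also had no peak in their windows. The same was true of all 3 anticoagulant genes, which were Proc (protein C), Pros1 (protein S) and Tfpi (tissue factor pathway inhibitor), and of the 3 genes of fibrinolysis and its control, Plg (plasminogen), Cpb2 (the inhibitor of fibrinolysis activated by thrombin) and Hrg (histidine-rich glycoprotein). The OS nearest to Tfpi, number 1109, lay 45.0 kb downstream in Calcrl.

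In the classical pathway of complement, C4b was the only one of 6 genes with an OS. It encodes the component that C1s cuts to begin the C3 convertase. C4b lies on the minus strand of chromosome 17 from 34865325 to 34880827, and OS number 1606 (34864930 to 34865087) had its midpoint 317 bp beyond the end of the gene. MACS2 had it at number 2663. C1qa, C1qb, C1ra, C1s and C2 had none. The gene model of C1s used here spans 107 kb, and its nearest OS, number 2019 in Lpcat3, was 42.0 kb away.

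C4b has a near copy, C4a, on the same chromosome from 34946037 to 34960409, which the annotation does not class as protein-coding and which was therefore not in the background. OS number 1313 (34945719 to 34945876) lay 240 bp beyond the end of C4a, as OS 1606 did beyond C4b, 80.8 kb apart. The pair was looked at after the values had been seen. Both OS were 158 bp wide, and a stretch of 90 bases without gaps matched between them at 94.4% of positions, with 5 mismatches and the same WGATAR word in the same place. The stretches are given so that both copies can be compared.
C4b, OS 1606 (chr17:34864998-34865087): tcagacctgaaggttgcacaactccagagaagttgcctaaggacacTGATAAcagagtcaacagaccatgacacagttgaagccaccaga
C4a, OS 1313 (chr17:34945719-34945808): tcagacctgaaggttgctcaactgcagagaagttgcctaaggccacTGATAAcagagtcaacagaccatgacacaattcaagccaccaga
The authors kept only uniquely placed reads. How far reads could be placed at 1 copy by the bases that differ was not tested, so occupancy of either copy alone is uncertain. Cfb and C2, further along the same chromosome, had OS 1313 as their nearest, at 47.5 and 53.8 kb.

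Of the other lectin pathway genes, Masp2, Mbl1 and Mbl2 had no OS. Mbl1, which encodes a mannan-binding lectin, fell just outside the window, with OS number 281 at 10.6 kb upstream of its start. That OS held 2 WGATAR matches, and the nearest TSS to it was that of Sftpa1. C3, the component at which all pathways meet, had no peak within 10 kb. Its nearest OS, number 4108, was 19.5 kb upstream and 14 bp from the TSS of Gpr108. Cfb and Cfp, the genes for factor B and properdin of the alternative pathway, had none.

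In the terminal pathway, whose proteins build the membrane pore, C8b had 1 OS and Hc, C6, C8a, C8g and C9 had none. OS number 3720 (104476729 to 104477048 on chromosome 4) covered the end of the coding sequence of C8b. It had 34 bp in the coding part of exon 12, the last, and 286 bp after the end of the coding sequence, and its midpoint was 37.9 kb from the nearest TSS of the gene. C8a, which is transcribed toward C8b, ended 11.4 kb from it. MACS2 gave the site number 5478, close to the end of its list. Of the inhibitors, Cfi, the gene for factor I, which inactivates C3b and C4b, had an OS 1156 bp upstream of its TSS (number 2987, 129538426 to 129538572 on chromosome 3). Its partner C4bp, the gene for C4b-binding protein, had none within 10 kb, and OS number 1844 lay 17.2 kb upstream. The TSS of C4bp was the nearest one to that OS.

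A total of 31 members had no common OS, and 30 of them had no peak of any list within 10 kb. The nearest OS was within 50 kb for 11 of the 31 and farther for 20, with a median distance of 62.5 kb. It was over 100 kb away for 13. The share with no OS within 10 kb was 77.5% of members and 86.4% of other genes. Within 50 kb, 50% of all members had an OS, against 27.6% of other genes. Within 100 kb the shares were 67.5% and 39.9%. Neighbouring members that share an OS are each counted in these shares.

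Occupied promoters were rare among the members and among other genes alike. An OS lay within 1 kb of a TSS at 2 of the 40 genes, Masp1 and F10 (5.0%), and at 3.11% of other genes. Within 5 kb the numbers were 3 genes, with Cfi added, and 5.64% of other genes. Counted over OS, 2 of 11 (18.2%, Wilson 95% interval 5.14 to 47.7) lay within 1 kb of a member's TSS, and 14.8% of all other OS lay within 1 kb of some protein-coding TSS. Relative to the member with the nearest TSS, 4 OS were in introns, 1 in an exon, 3 upstream and 3 downstream. Promoters were also searched for exact WGATAR from 250 bases upstream to 50 bases downstream of the TSS, on both strands. The motif was present at 11 of the 40 members (27.5%) and at 26.9% of other genes. Only 2 of those 11, Masp1 and Fgb, had an OS, and only at Masp1 did the OS lie at the promoter. Pros1, Tfpi, Hrg, C1qb, Mbl2, Masp2, Hc, C6 and C8g had the motif and no OS within 10 kb.

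All 11 member OS held WGATAR (100%, Wilson 95% interval 74.1 to 100), against 82.9% of the 4398 other OS. The 82.9% lay inside the members' interval. In the central 100 bp the shares were 100% and 74.2%. In 500 bp around the midpoint they were 100% and 89.6%, and for MACS2 peaks 100% and 90.3%. There were 14 matches in the 11 OS, 12 of them within 50 bp of the midpoint and the farthest at 83 bp. Of the 11 OS, 9 held a single match, a number found in 48.1% of other OS. The word TGATAA made up 6 of the 14 matches (42.9%, against 26.8% in other OS) and AGATAA 5 (35.7% against 44.7%). With so few matches these shares are a description of these OS.

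The motifs of the 6 OS at genes other than Masp1 are given in the same way, since each had a single WGATAR. For C8b, whose motif lies after the coding sequence, 12 bases on both sides are shown, for the others 20, and for C4b the stretch above stands.
F10 and F7, OS 2570 (chr8:13036591-13036636): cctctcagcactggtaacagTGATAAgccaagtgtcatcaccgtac
Fga and Fgb, OS 3516 (chr3:82843779-82843824): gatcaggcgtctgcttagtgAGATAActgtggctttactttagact
Cfi, OS 2987 (chr3:129538496-129538541): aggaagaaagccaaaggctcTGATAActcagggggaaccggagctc
C8b, OS 3720 (chr4:104476896-104476925): ttgatcagtgcaTGATAAtttgagtaaaca
F11, OS 4218 (chr8:46325120-46325165): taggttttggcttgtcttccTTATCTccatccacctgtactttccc
TGATAA was the word at F10, Cfi, C8b and C4b, and AGATAA at the fibrinogen OS and, on the minus strand, at F11.

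**Figure D4:**
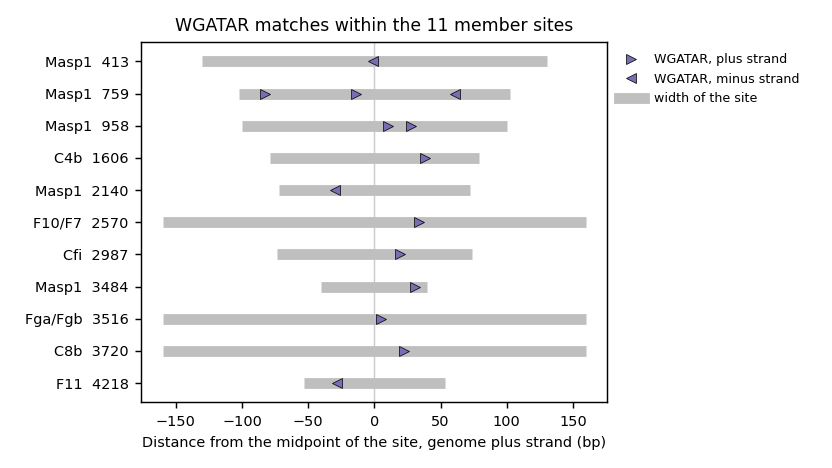
Position of each WGATAR match (triangles, pointing right for the plus and left for the minus strand) from the midpoint of the 11 member OS in bp, with the width of each OS as a grey bar and its gene and number at the left. Every OS has at least 1 match within 50 bp of its midpoint, and OS 759 has 3 in all.

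Words of other liver factors were sought on both strands of the OS. The forkhead (FOXA) word TGTTTAC was in 3 of 11 OS (27.3%, Wilson 95% interval 9.75 to 56.6), against 6.21% of other OS. It stood at Masp1 OS 413 and 3484 and at the C8b OS, on the minus strand each time, where it reads gtaaaca in the sequences above. In both Masp1 OS it was 40 bases from WGATAR, and at C8b 5 bases. The C/EBP word TTGCNNAA was in 3 OS (27.3% against 12.6%), those of C4b, F10 and C8b. The HNF1 word GTTAAT and the ETS word CAGGAAG were each in 1 OS, that of Cfi (9.09%, against 5.28% and 22.8%). The HNF4 word CAAAGTCCA was in 0 of the 11 and in 1.16% of other OS. These matches describe the letters of the OS and do not show that a factor was bound.

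**Figure D5:**
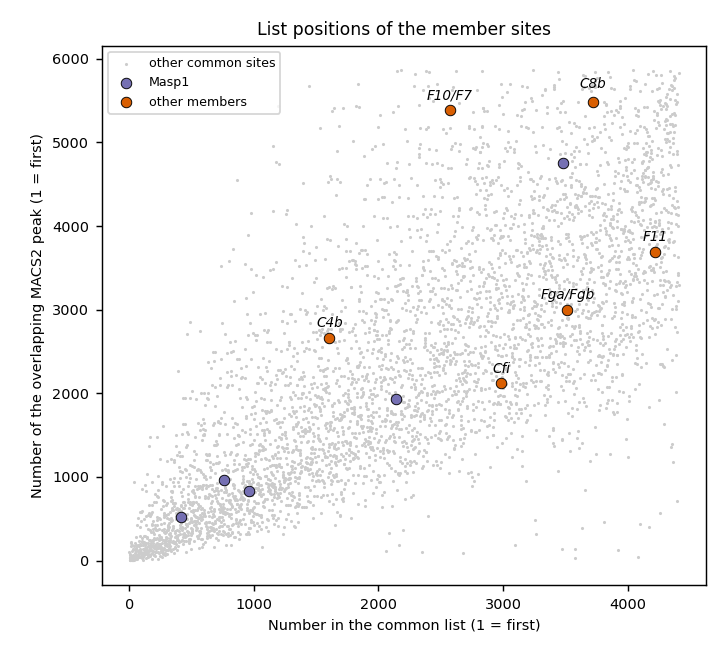
Number of each common OS in the common list against the number of the overlapping MACS2 peak (1 is the first of each list), for Masp1, the other members and all other OS. Masp1 holds the 3 member OS nearest the head of both lists, and C8b and F10/F7 stand near the end of the MACS2 list.

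The member OS ranged from number 413 to 4218 of the common list, with a median of 2570 against 2204.5 for the other OS. Masp1 and the other members were farther apart than this. The 5 Masp1 OS had a median number of 958 and 4 of them were among the leading 2204, whereas the 6 other OS had a median of 3251.5 and only the C4b OS was among these. If only the leading 2204 OS are kept, Masp1 and C4b remain, which is 2 of 40 genes (5.0%) against 7.22% of other genes. Widths were 80 to 320 bp with a median of 200 bp (190 bp in other OS). The GC content was 43.8 to 57.6%, with a median of 48.0% against 49.4%, and was highest at the Masp1 promoter.

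Other genes of the 2 systems were taken from a list of 51 symbols, of which 50 were protein-coding genes of the annotation. An OS was present at 9 of the 50 (18.0%, Wilson 95% interval 9.77 to 30.8). F8, the gene for factor VIII, had OS number 4229 in intron 1, and Vwf, the gene for von Willebrand factor that carries factor VIII in plasma, had numbers 3695 and 1563 in introns 6 and 10. Both are known as endothelial genes, whereas Tfpi, named above as mainly endothelial, had no OS within 10 kb. The cell type in which these OS were occupied was not tested. Vkorc1, which encodes the vitamin K epoxide reductase needed to make active factors VII, IX, X and prothrombin, had OS number 2595 at 123 bp upstream of its TSS. Mcfd2, whose protein helps factors V and VIII out of the endoplasmic reticulum, had number 717 in intron 1. On the complement side, Cd59a had number 3541 in intron 1, within the window of Cd59b as well, and C5ar1 had number 546 at 18.8 kb from its TSS, where the nearest TSS was that of Gpr77. The other 41 genes had no OS.

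The members were set beside other secretory genes of liver, with no test of the difference. Of 15 apolipoprotein genes, 5 (33.3%, Wilson 95% interval 15.2 to 58.3) had an OS, 4 of them in the Apoe cluster around 2 shared OS. Of 39 other plasma protein genes, 9 (23.1%, 12.6 to 38.3) had 1, among them Ttr at its TSS, Ahsg at 165 bp upstream, and Pzp with OS number 10. The OS numbers per Mb were 8.0 (exact Poisson 95% interval 1.65 to 23.4) and 5.51 (2.38 to 10.9).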

How the data were processed

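Per the labels and the study's methods, the authors aligned reads to mm9 and kept those with a unique position. Peak calling used SPP, in a modified form, and MACS2, on each replicate and on both merged, against pooled input, with thresholds from the irreproducible discovery rate between the replicates. The submitters' processing notes name Bowtie 0.12.7, MACS2 2.0.10 and bedtools 2.16.1. The deposited score is 1000 for every peak in all 3 lists, so list numbers were used. Read counts and depth are unknown from these files, and the input entered only through the peak calls.

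All 4409 common peaks had SPP coordinates and lay within chromosomes of the reference (NCBI Build 37, the same build as mm9). Genes came from GENCODE M1. Coordinates are 1-based and were not converted between builds. Overlap meant at least 1 bp. WGATAR was matched exactly with overlapping matches counted. All 40 members are accounted for, those with an OS 1 by 1, and those without it by name, with their nearest OS where it lay within 50 kb except for F13b. Genes of other lists were named only with an OS, except neighbours with the nearest TSS, and a few items are counted but not reported here by name. By the rule, each member with an OS shows its OS of lowest number. Showing all 5 of Masp1, and C4a beside C4b, was decided after the values were seen. The members, roles and comparison lists were chosen with earlier results of these data known, and they were compared by counts only.

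Counting and motif search were tested on simulated data. Versions were samtools 1.23.1, pysam 0.24.0, scipy 1.17.1, numpy 2.4.6 and matplotlib 3.10.9, in Python 3.11.15.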

Additional observations from a re-analysis of the deposited data

How the results depend on the processing

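Of 41 values recomputed, 33 stayed close to the reported one (counts within 1.5 times, shares, densities and medians within their 95% interval) and 8 moved. With 11 OS these intervals were wide, such as 2.89 to 10.3 OS per Mb, so large changes could still count as close. The 3.31 OS per Mb without Masp1 was counted as close in this way. The number of genes with an OS went from 9 to 2 with the gene body only and with the leading 2204 OS, and to 20 with 50 kb in place of 10 kb. The number of OS went from 11 to 5, 5 and 21 under the same settings. OS per Mb moved from 5.78 to 2.63 with the leading 2204 OS, where other genes had 1.22. Leaving out Masp1, chosen after seeing the data, left 6 OS. With 50 kb all 9 genes remained and 11 were added. The share with WGATAR was 100% under the 7 alternatives run for it, but several of these could not lower it. The 500 bp around the midpoint covered each whole OS, and WGATA or GATAR is a looser word. The 5 kb window kept the same 11 OS. No paired analysis was possible because the lists hold no values per replicate and the input has no peak list. Depth could not be set against any gene, since the lists hold no counts.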
